A study of Homo sapiens with 4 samples.

Results

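Genes that span 1 Mb or more on an autosome are the subject here. They were taken from the deposited table of nascent RNA counts as the gene rows on chromosomes other than X and Y whose listed length was at least 1000000 bp. The table held 64 such genes among 19901 protein-coding genes. Of these, 28 had at least 50 counts in all 4 libraries and were tested among the 12612 genes of the table that passed the same minimum, and 36 did not pass. The 4 genes of this length on the X chromosome were left out by the rule.

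The RNA came from HCT116, a human colon cancer cell line, in a single derived clone (KAP1_dTAG_CloneD5). In this clone the KAP1 protein, encoded by TRIM28, is fused to a degradation tag that dTAG, a small molecule, recognizes. Both groups were of this genotype and differed in the treatment of 8 h, with DMSO as the vehicle in 2 libraries and with dTAG in 2 libraries. After the treatment, cells were labeled with 500 μM 4-thiouridine (4sU) for 10 min, and the labeled RNA was sequenced (TT-Seq). The comparison asks whether acute loss of KAP1 changed nascent transcription over these genes. Where counts differ, fewer labeled transcripts per cell and a different mix of cells cannot be told apart in such bulk libraries.

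RNA polymerase II needs hours to cross a gene of this size, so that a short 4sU pulse labels polymerases that are spread over the whole gene, and most of the labeled RNA is intronic. Many genes of this length encode adhesion molecules, receptors and synaptic proteins and are most active in neurons. Others, such as FHIT and WWOX, are transcribed in many tissues and lie in common fragile sites, regions that break when DNA replication is slowed.

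A promoter is shown for each of 4 of these genes. In some genes a RefSeq start of transcription lies close to the start of the table's interval, and in others far from it. Each sequence runs 5′ to 3′ on the strand of the gene, from 250 bases before to 50 bases after a start in RefSeq (GRCh38.p14), and CG dinucleotides are in capitals. RUNX1 was one of the genes called higher with dTAG, TBC1D5 had the highest level per kilobase of counted interval, FHIT is a fragile site gene of high level and CTNNA3 stands for the genes of lowest level. All 4 genes lie on the minus strand, and the intervals are chr21:34888650-34888949 for RUNX1, chr3:17742582-17742881 for TBC1D5, chr3:61251403-61251702 for FHIT and chr10:67696146-67696445 for CTNNA3.
RUNX1: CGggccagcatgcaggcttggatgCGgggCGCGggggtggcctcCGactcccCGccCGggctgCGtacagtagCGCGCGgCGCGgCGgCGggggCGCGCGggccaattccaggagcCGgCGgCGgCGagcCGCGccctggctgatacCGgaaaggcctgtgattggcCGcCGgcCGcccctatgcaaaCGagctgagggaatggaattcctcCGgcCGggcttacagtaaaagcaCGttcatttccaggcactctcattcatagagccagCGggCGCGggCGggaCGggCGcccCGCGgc
TBC1D5: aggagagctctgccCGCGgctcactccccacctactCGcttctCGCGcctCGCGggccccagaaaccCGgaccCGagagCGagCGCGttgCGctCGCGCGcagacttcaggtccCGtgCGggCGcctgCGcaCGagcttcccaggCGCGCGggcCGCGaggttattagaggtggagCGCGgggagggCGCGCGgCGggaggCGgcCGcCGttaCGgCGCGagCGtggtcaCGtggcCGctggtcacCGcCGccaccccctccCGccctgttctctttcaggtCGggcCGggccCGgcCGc
FHIT: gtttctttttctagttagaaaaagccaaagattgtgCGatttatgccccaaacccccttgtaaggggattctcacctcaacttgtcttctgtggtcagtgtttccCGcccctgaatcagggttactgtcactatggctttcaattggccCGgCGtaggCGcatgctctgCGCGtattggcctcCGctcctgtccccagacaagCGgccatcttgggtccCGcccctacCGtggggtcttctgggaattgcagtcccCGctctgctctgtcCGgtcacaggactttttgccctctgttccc
CTNNA3: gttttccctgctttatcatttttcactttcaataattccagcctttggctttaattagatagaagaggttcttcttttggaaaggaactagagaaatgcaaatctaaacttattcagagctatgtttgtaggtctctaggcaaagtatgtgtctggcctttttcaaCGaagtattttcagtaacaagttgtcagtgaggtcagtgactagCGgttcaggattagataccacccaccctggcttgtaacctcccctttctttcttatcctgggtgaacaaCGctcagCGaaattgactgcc

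These windows differed in their CG content. The RUNX1 and TBC1D5 windows held 40 and 48 CG dinucleotides, the FHIT window 13 and the CTNNA3 window 4, against a median of 14 over all 35116 promoters in the table. At least 1 CG was found in 96.0% of all promoters. An entry was found for 23 of the 28 tested genes, and where a gene had several, the one closest to the start of the counted interval was used. Of these 23 starts, 12 lay within 2 kb of the start of the interval and 9 lay over 100 kb inside it. Some were internal starts, such as that of KAZN at 706 kb, where the RefSeq span begins 0.033 kb inside. The windows are therefore not always those of the 5′ end of the gene. The median of the 23 windows was 24 CG dinucleotides, with a range from 0 to 55. It was 23 for the 14 genes with a mean count of at least 600 and 27 for the 9 genes below it, so that these medians were close. The motif TGACTCA, which reads TGAGTCA on the other strand and was searched in both forms, was found in the windows of DAB1 and PDE4D. Of all promoters, 4.95% held it. The windows of RUNX1, TBC1D5, FHIT and CTNNA3 held neither form.

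The start shown for FHIT lay 7 bases inside the counted interval, and that for CTNNA3 lay 26 bases before it. The TBC1D5 start lay 702 kb inside the interval. The RUNX1 start shown lay 1116 kb inside, downstream of the 5′ end of its RefSeq span, which lay 955 kb inside. The RUNX1 window is thus that of an internal start. RefSeq spans were therefore set beside the counted intervals. All 28 tested genes had a RefSeq span on the same chromosome. In 25 of them it was 1 Mb or longer, and in 3 it was shorter, at 262 kb for RUNX1, 585 kb for TBC1D5 and 643 kb for LSAMP. For these 3 genes the RefSeq span covered 21.5%, 45.5% and 48.1% of the counted interval, and the missing stretch was at the 5′ end. Of 35 matched genes under the count minimum, ZFPM2 and RBMS3 also had RefSeq spans under 1 Mb. Values per kilobase below use the table's length. Divided by the RefSeq span instead, and with all counts taken to fall within it, RUNX1 would stand at 0.955 and TBC1D5 at 0.809 CPM (counts scaled to the library size) per kilobase with DMSO, so that RUNX1 and not TBC1D5 would be highest.

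**Figure D1:**
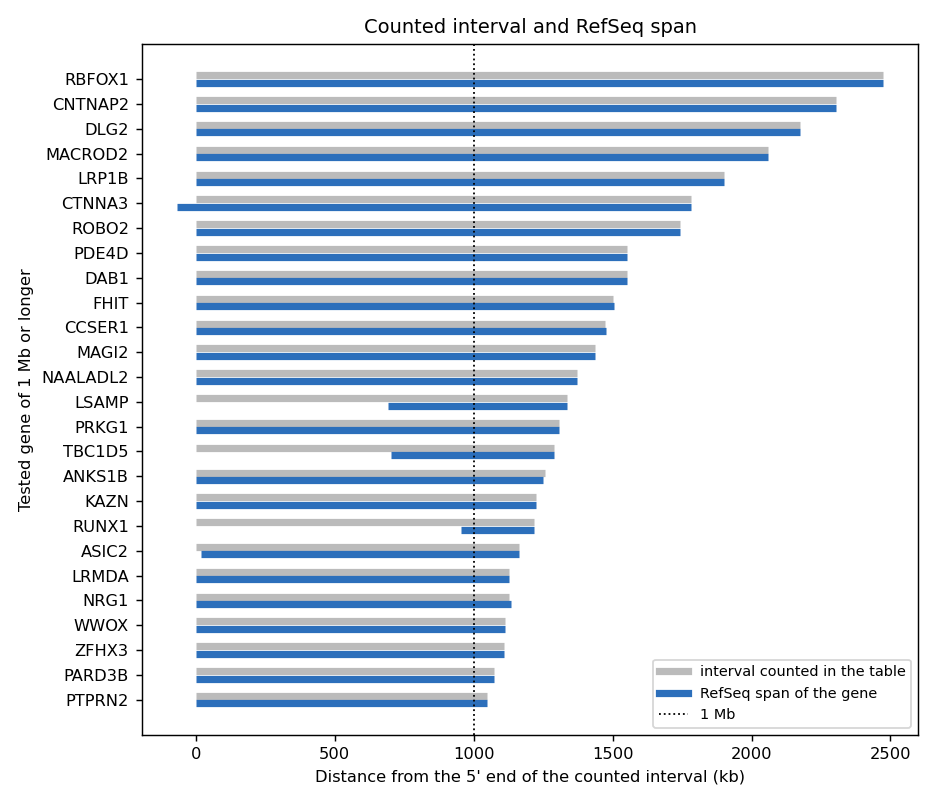
Counted interval (grey) and RefSeq span (blue) of 26 of the 28 tested genes, in kb from the 5′ end of the counted interval, with 1 Mb as a dotted line. The RefSeq spans of RUNX1, TBC1D5 and LSAMP begin 955, 702 and 694 kb inside the counted interval, whereas most others begin at its 5′ end.

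The intervals of the 64 genes ran from 1004389 bp (ADAMTSL1) to 2473538 bp (RBFOX1), on 19 chromosomes, with 32 genes on each strand. By the exons of GENCODE 44, between 97.6% and 99.8% of each interval was not exon, against a median of 84.7% for all tested genes. For RUNX1, TBC1D5 and LSAMP this share includes sequence outside the RefSeq span. The longest single intron of a member had a median of 308 kb, and the longest of all was 862682 bases, in ASIC2, which encodes a proton-gated channel. The genes were poor in GC, with 49 of 64 below 40%. The 28 tested genes had a median GC content of 37.7%, against 44.9% for all tested genes. PTPRN2 stood apart at 51.4%.

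Total gene counts per library ran from 93105627 to 102314741, and the precision of the values below is set by the spread between 2 libraries per group. TRIM28 had 6107 and 6959 counts with DMSO and 5357 and 4321 with dTAG, and edgeR gave a log2 fold change of -0.37 and an adjusted p of 0.019. Because the protein and not this RNA is the target of dTAG, the value is no check of the labels. Of 7 colon epithelium markers, 6 passed the count minimum, and their summed level was between 1063 and 1171 CPM in the 4 libraries. The 5 neuronal markers summed to between 37.4 and 42.0 CPM, most of it from MAP2, and the 3 leukocyte markers to at most 0.130 CPM.

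Nascent RNA from the 64 genes made up 0.269% and 0.247% of the gene total in the DMSO group and 0.268% and 0.278% with dTAG. DMSO replicate 2 was lowest, and the other 3 libraries lay close together. With DMSO the mean share was 0.258% ± 0.0155 (SD, n = 2), against 0.273% ± 0.00724 (SD, n = 2) for the dTAG group. By a two-sided exact permutation test over the 4 libraries, p was 0.667, and the smallest p that this design allows is 0.333. Most of these counts came from few genes. In each library, 6 genes held between 72.6% and 74.6% of them.

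The levels of the tested genes were compared on the scale of CPM per kilobase with DMSO. TBC1D5, a GTPase-activating protein for Rab proteins (ENSG00000131374.14, chromosome 3 from 17157161 to 18444817), was highest over the counted intervals. It had 51727 and 42363 counts with DMSO and 51600 and 50069 with dTAG. DMSO replicate 2 was lowest and the groups overlapped. The level was 0.368 CPM per kilobase with DMSO, at the 24.6th percentile of all tested genes. Behind it followed the zinc finger homeobox factor ZFHX3 at 0.278, FHIT, which hydrolyses diadenosine polyphosphates, at 0.232, RUNX1 at 0.205 and the LDL receptor family member LRP1B at 0.173 CPM per kilobase. None of the 28 genes reached the median of all tested genes, 1.06 CPM per kilobase, and 20 of them lay below the 10th percentile. The minimum of 50 counts was the same at every length, so shorter genes at such low levels were not among the tested genes. Within length classes, the 10th percentile with DMSO was 0.363 for tested autosomal genes under 10 kb and 0.000573 at 1 Mb or longer. Over the 4 libraries the values of TBC1D5 and ZFHX3 did not overlap, whereas those of ZFHX3 and FHIT did.

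Near the other end stood the Reelin adaptor DAB1 at 0.000505 CPM per kilobase with DMSO, the catenin gene CTNNA3 at 0.000564 and the synaptic scaffold gene MAGI2 at 0.000577, which were indistinguishable from each other within the spread of the libraries. DAB1 had 62 and 94 counts with DMSO and 75 and 68 with dTAG, with both dTAG libraries between the DMSO libraries. RBFOX1, a splicing factor and with 2473538 bp the longest gene (ENSG00000078328.20, chromosome 16 from 5239801 to 7713338), had 206 and 245 counts with DMSO and 248 and 230 with dTAG. In CPM its dTAG libraries were both above its DMSO libraries, by a narrow margin, and the log2 fold change was 0.15 (standard error 0.21).

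**Figure D2:**
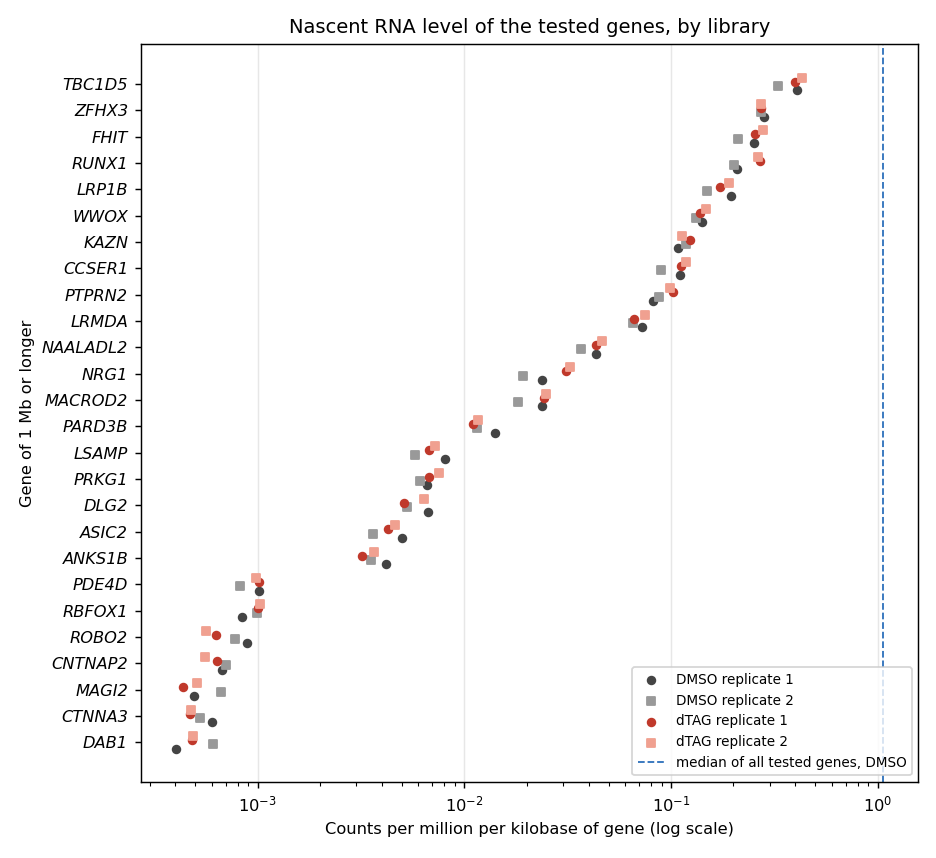
Level of 26 of the 28 tested genes in the 4 libraries, in CPM per kilobase of gene on a log scale, ordered by the DMSO mean, with the median of all tested genes as a dashed line. The genes run from DAB1 at 0.000505 to TBC1D5 at 0.368, all below 1.06, and the 4 libraries of a gene lie close together against the range between genes.

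The 36 genes under the minimum had between 1 and 68 counts in any library. The transcription factor gene SOX5 was lowest, with 7 counts in each DMSO library and 6 and 1 with dTAG. GPC5, which encodes a glypican, came close to the minimum with 67 and 51 counts with DMSO and 46 and 67 with dTAG. Together the 36 genes had 963 and 929 counts with DMSO and 887 and 818 with dTAG. Adhesion molecules were the group most often under the minimum. Of 27 genes listed under adhesion, 21 did not pass, among them the cadherin genes CDH12, CDH13 and CDH18, the neurexin gene NRXN3 and the guidance receptor genes ROBO1 and DCC. Among 13 genes listed under channels, receptors and synaptic proteins 6 did not pass. Among 13 under enzymes and signaling 3 did not, and among 7 under RNA- or DNA-binding proteins 4.

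With dTAG, 2 of the 28 tested genes were called higher and 0 lower, at an adjusted p under 0.05 in edgeR's quasi-likelihood test. This was 7.14% of the genes, against 7.1% of all tested genes called in either direction, 3.44% higher and 3.66% lower, so that the share called was near the background. At an unadjusted p under 0.05, 4 of the 28 were higher and 0 lower, against 12.3% and 14.3% of all tested genes. None of the 28 changed by 1.5-fold or more. The number of calls changed with single libraries. Without DMSO replicate 1, 9 genes were called higher, where 43.5% of all tested genes were called. Without dTAG replicate 1, only NRG1 was called, and without dTAG replicate 2 none was (2 were higher at an unadjusted p under 0.05 in edgeR), with 1.09% and 0.547% of all tested genes called. DESeq2 called 3 genes higher and 0 lower, where 10.1% of all tested genes were called.

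NRG1 encodes neuregulin, a ligand of ERBB receptors, and lies on chromosome 8 (ENSG00000157168.18, 1128575 bp). It had 2644 and 2175 counts with DMSO and 3503 and 3308 with dTAG. Both dTAG libraries were above both DMSO libraries, and DMSO replicate 2 was lowest. The level was 24.2 ± 3.46 CPM (SD, n = 2) in DMSO cells and rose 1.48-fold to 35.8 ± 1.19 CPM (SD, n = 2). In edgeR's quasi-likelihood test the log2 fold change was 0.56, with a standard error of 0.11 and a Benjamini-Hochberg adjusted p of 0.0033. Leaving out a library moved the log2 fold change between 0.42 and 0.72. The adjusted p in the same edgeR test was 0.22 without dTAG replicate 2, 0.12 with TMM factors from genes of 100 kb to 1 Mb and 0.47 with library sizes set to the totals of the ERCC spike-in RNAs. With ERCC totals 0 of all 12612 tested genes were called in either direction, and with those TMM factors 0.555% were. The receptor gene ERBB4, also a member, had between 16 and 40 counts and was not tested.

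RUNX1 encodes a Runt-domain transcription factor (ENSG00000159216.18, chromosome 21 from 34787800 to 36004667). Its counts were 25038 and 24611 with DMSO and 32976 and 28824 with dTAG. Both dTAG libraries were above both DMSO libraries. In DMSO cells the level was 249.8 ± 4.33 CPM (SD, n = 2), and it rose 1.30-fold to 324 ± 6.96 CPM (SD, n = 2). The same edgeR test gave a log2 fold change of 0.38, with a standard error of 0.090 and an adjusted p of 0.016. The log2 fold change stayed between 0.36 and 0.40 when a library was left out. The adjusted p in the same edgeR test was 0.45 when dTAG replicate 1 was left out and 0.72 when dTAG replicate 2 was. The call was also lost in edgeR with the replicate block (adjusted p 0.13), with TMM factors from genes of 100 kb to 1 Mb (0.11) and with ERCC totals (0.47). Of all tested genes, these fits called 2.7%, 0.555% and 0%. The RefSeq span of RUNX1 is under 1 Mb, as shown above, so that of the called genes NRG1 is the one whose RefSeq span also passes 1 Mb.

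PTPRN2 and MACROD2 had the next smallest p-values and were not called. PTPRN2, a receptor-type phosphatase gene of secretory vesicles (ENSG00000155093.17, chromosome 7 from 157539055 to 158587788), was the shortest tested gene at 1048734 bp. It had 8541 and 9160 counts with DMSO and 10763 and 9371 with dTAG. In CPM both dTAG libraries were above both DMSO libraries. By edgeR its log2 fold change was 0.25, with a standard error of 0.083 and an adjusted p of 0.070. DESeq2 and the likelihood ratio test called it higher, with 10.1% and 12.6% of all tested genes called. So did fits with 1 factor from the ERCC RNAs as a covariate or with GC and length trends removed, with 10.5% and 18.1% called. In edgeR's quasi-likelihood test the adjusted p was 0.17 with upper-quartile factors and 0.26 with the replicate block, where 8.91% and 2.7% were called. In the same test the adjusted p was 0.36 with TMM factors from genes of 100 kb to 1 Mb and 0.47 with ERCC totals. These fits called 0.555% and 0% of all tested genes. Leaving out a library moved the log2 fold change between 0.20 and 0.29. MACROD2, a fragile site gene whose product removes ADP-ribose from proteins (ENSG00000172264.17, chromosome 20 from 13995368 to 16053197), had 4827 and 3743 counts with DMSO and 4998 and 4634 with dTAG. DMSO replicate 2 was low, and DMSO replicate 1 lay near the dTAG libraries. The edgeR log2 fold change was 0.23, with a standard error of 0.11 and an adjusted p of 0.17. Without DMSO replicate 1 it was 0.43 and called, and without DMSO replicate 2 it was 0.054.

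Of the 28 genes, 18 had a log2 fold change above 0 and 10 below. Over all tested genes, 47.7% were above 0. Both dTAG libraries were above both DMSO libraries in 9 genes and below both in 3, against 28.1% and 30.7% of all tested genes. In the other 16 the groups overlapped. The median log2 fold change was 0.066, against -0.015 for all tested genes. After the trend of each library on gene length was removed, it was 0.0073, against 0.0020 for all tested genes. It lay below 0 with 1 factor of variation from the ERCC RNAs as a covariate (-0.061), with upper-quartile factors (-0.0074), with TMM factors from genes of 100 kb to 1 Mb (-0.036) and without DMSO replicate 2 (-0.0025). The medians of all tested genes in the same fits were, in this order, -0.0062, -0.088, -0.12 and -0.0048. With the upper-quartile and TMM factors the 28 genes thus stayed above all tested genes.

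The groups below came from a broad list of functions, which also sets the place of KAZN and LRMDA, and no difference between groups was tested. Among the 10 tested genes listed under enzymes and signaling, 9 were above 0 and none was called, with a median of 0.14. With the ERCC factor as a covariate 4 of the 10 were above 0, with a median of -0.038, and without DMSO replicate 2 the median was 0.065. Among them were MACROD2, FHIT (0.20), the peptidase-like gene NAALADL2 (0.17), the cyclic GMP-dependent kinase gene PRKG1 (0.17), the cyclic AMP phosphodiesterase gene PDE4D (0.13), the oxidoreductase gene WWOX (0.07), KAZN (0.06), LRMDA (0.04) and DAB1 (-0.06). FHIT had 37622 and 31763 counts with DMSO and 38182 and 37947 with dTAG. Again DMSO replicate 2 was lowest, and in CPM DMSO replicate 1 and dTAG replicate 1 were nearly equal.

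The 6 tested genes listed under adhesion, where the list also put LRP1B and PARD3B, had a median of -0.19, with 4 below 0 and none called. All 6 were below 0 with the ERCC factor as a covariate, or without DMSO replicate 2. With ERCC totals as library sizes all 6 were above 0, at a median of 0.44, where that of all tested genes was 0.63. ROBO2, a receptor for Slit proteins, was lowest of all 28 genes. It had 154 and 135 counts with DMSO and 110 and 89 with dTAG. Both dTAG libraries were below both DMSO libraries. The edgeR fit put its log2 fold change at -0.48, with a standard error of 0.25 and an adjusted p of 0.22. CTNNA3 stood at -0.25, the neuronal adhesion gene CNTNAP2 at -0.20, LSAMP at 0.01 and LRP1B at 0.08. PARD3B, a cell polarity gene (ENSG00000116117.17, chromosome 2 from 204545792 to 205620162), is the second shortest tested gene at 1074371 bp and stood at -0.18 (standard error 0.13). Its counts were 1496 and 1241 with DMSO and 1187 and 1129 with dTAG. In CPM, DMSO replicate 2 lay between the dTAG libraries.

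Of the 7 tested genes listed under channels, receptors and synaptic proteins, 3 were above 0. Beside NRG1 and PTPRN2 this was ASIC2 (0.05). The other 4 were below 0 and not called, among them DLG2 (-0.06), ANKS1B (-0.17) and MAGI2 (-0.29), which encode synaptic scaffold proteins. The RNA- or DNA-binding group held RUNX1, RBFOX1 and ZFHX3, the last at -0.02 with 31130 and 30176 counts with DMSO and 30282 and 27420 with dTAG. CCSER1, a fragile site gene, was at 0.20, and TBC1D5 at 0.18 (standard error 0.11).

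Genes known to lie in common fragile sites made up 22 of the 64 genes and 18 of the 28 tested. None of the 18 was called, where 7.1% of all tested genes were, 10 were above 0 and 8 below, and the median was 0.040. The 10 tested genes outside this list had a median of 0.11 and held both called genes. At these sizes the counts of calls lie near the background, and the difference between the lists was not tested. Of 16 fragile site genes outside the 64, which are shorter than 1 Mb or lie on the X chromosome, 11 were tested. One of the 11 was called higher, with 9 above 0 and a median of 0.17. This was DIAPH2 on the X chromosome, at 0.37.

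**Figure D3:**
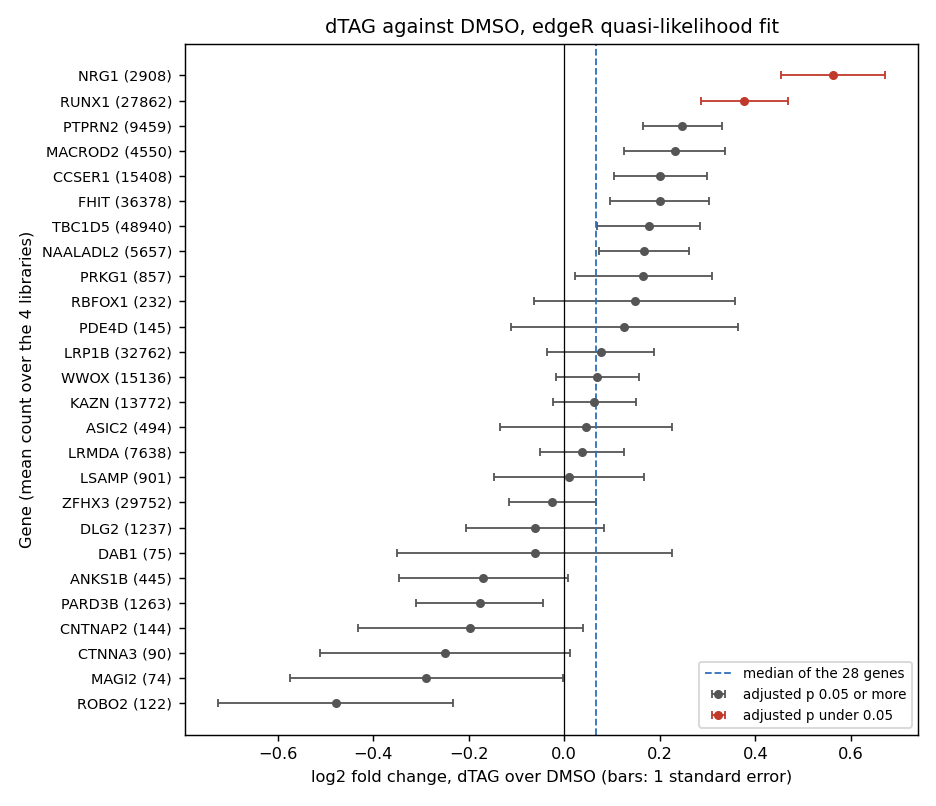
Log2 fold change of dTAG over DMSO for 26 of the 28 tested genes, with bars of 1 standard error from edgeR's quasi-likelihood fit, and the mean count of each gene in parentheses. NRG1 (0.56) and RUNX1 (0.38) have an adjusted p under 0.05, and 9 of the plotted genes lie below 0 with ROBO2 (-0.48) lowest.

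The direction of the change differed with the count. Of the 18 genes with a mean count of at least 600, a value chosen after the counts were seen because no gene lay between 494 and 857, 15 were above 0, with a median of 0.16. Without DMSO replicate 2, 12 of the 18 were above 0 with a median of 0.051, without dTAG replicate 2 the median was 0.098, and with the ERCC factor as a covariate 6 were above 0 with a median of -0.045. Of the 10 genes below it, 7 were below 0, with a median of -0.18, which was -0.10 without DMSO replicate 1 and 0.45 with ERCC totals. With ERCC totals the median of the 18 genes was 0.79 and that of all tested genes 0.63. Across the 28 genes, Spearman's rho of the log2 fold change with the mean count was 0.65, a description of genes that share the same 4 libraries. Among all tested genes the medians also differed in sign. The 2204 tested genes below 600 counts had a median of -0.22, with 505 above 0, and the 10408 others a median of 0.016. Below 600 counts, the median log2 ratio of DMSO replicate 2 to DMSO replicate 1 was -0.19 in the 10 genes and 0.15 in the 2204. The 104 autosomal genes of 500 kb to 1 Mb at 600 counts or more had a median of 0.090, with 75 above 0. The 35 of that length below 600 counts had a median of -0.038, nearer 0 than that of the 10 genes, with 13 above 0. Standard errors ran from 0.083 to 0.16 at 600 counts or more and from 0.18 to 0.30 below, so that changes of the size of -0.18 were not detectable at the lower counts.

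**Figure D4:**
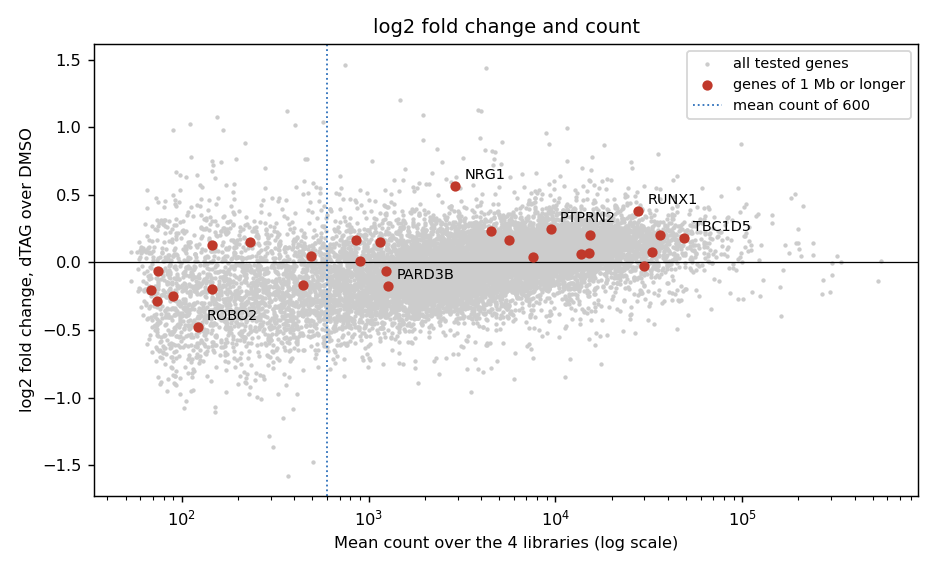
Log2 fold change of dTAG over DMSO against the mean count over the 4 libraries, on a log scale, for all 12612 tested genes (grey) and the 28 genes of 1 Mb or longer (red), with a mean count of 600 as a dotted line. To the right of it 15 of 18 genes lie above 0 (6 of 18 with the ERCC factor as a covariate), and to the left 7 of 10 lie below (none with ERCC totals as library sizes). With ERCC totals all 18 on the right lie above 0 too, and the median of all tested genes is 0.63.

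Set beside shorter autosomal genes, those of 1 Mb or longer did not stand apart in their median. The median log2 fold change was -0.21 for genes under 10 kb, -0.0099 at 10 to 100 kb, 0.094 at 100 to 500 kb, 0.074 at 500 kb to 1 Mb and 0.066 at 1 Mb or longer. The medians did not rise further beyond the class of 100 to 500 kb. The closest tested genes under the threshold were ASTN2 at 989847 bp, with a log2 fold change of -0.17 (standard error 0.083), and CAMTA1 at 984384 bp, with 0.12 (standard error 0.091), and neither was called. ASTN2 had 10472 and 9839 counts with DMSO and 9125 and 8125 with dTAG, and CAMTA1 had 21840 and 19544, then 22182 and 20881. The level per kilobase and the share tested, in contrast, did differ between these classes. The levels are those of tested genes, and the minimum of 50 counts lets in lower levels per kilobase the longer the gene. The median level with DMSO was 0.0105 CPM per kilobase for the tested genes of 1 Mb or longer and 0.105 for those of 500 kb to 1 Mb, and 43.8% and 58.9% of the genes of each class passed the count minimum.

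Replicates of 1 group also differed by length, and the DMSO replicates by more. The median ratio of DMSO replicate 2 to DMSO replicate 1 (log2) was 0.15 for genes under 10 kb and -0.22 for genes of 1 Mb or longer, and that of dTAG replicate 2 to dTAG replicate 1 was -0.096 and 0.082. DMSO replicate 2 was below DMSO replicate 1 in 22 of the 28 genes and the lowest of the 4 libraries in 16. Against the DMSO mean, the medians of the 28 genes were 0.11 and -0.11 in DMSO replicates 1 and 2, 0.018 in dTAG replicate 1 and 0.12 in dTAG replicate 2, a pooled SD of 0.12. The median difference between dTAG and DMSO, 0.066, was thus smaller than the spread between replicates. Across all tested genes, the ratio of the DMSO replicates followed GC content (Spearman's rho 0.75) and length (rho -0.47), and the log2 fold change between the groups followed them with rho -0.56 and 0.42. Their part in the changes of the 28 genes was not tested. With the trend of each library on GC content and then on length removed, 4 of the 28 genes were called higher (NRG1, RUNX1, PTPRN2 and FHIT) and PARD3B was called lower, where 18.1% of all tested genes were called.

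**Figure D5:**
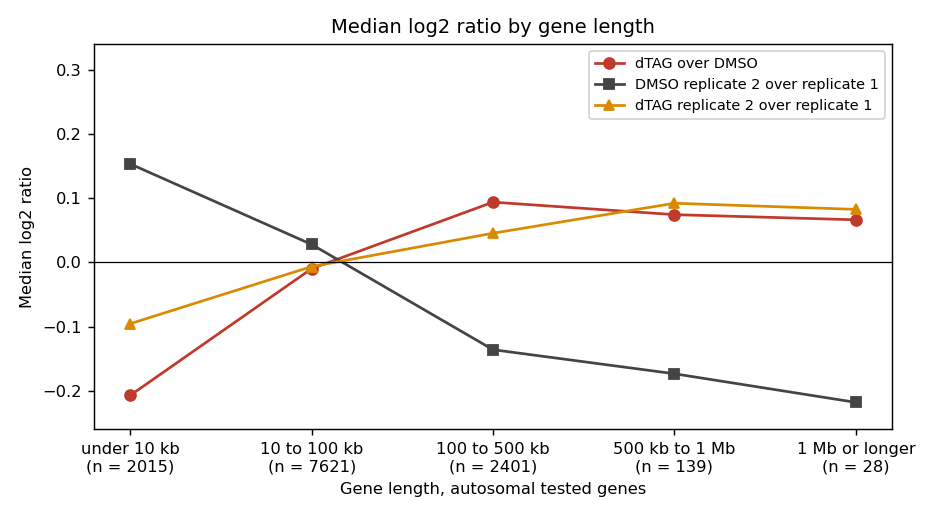
Median log2 ratio of dTAG over DMSO (red), of DMSO replicate 2 over replicate 1 (black) and of dTAG replicate 2 over replicate 1 (orange) in 5 classes of gene length, with the number of tested autosomal genes in each. For genes of 1 Mb or longer the values are 0.066, -0.22 and 0.082, so that the DMSO replicates differ more than the groups.

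Few of these intervals were shared with other genes. Of the 28 genes, 21 overlapped no other protein-coding gene in the table, and these had a median of 0.063 and both calls. DAB1 shared 8.46% of its interval with OMA1 on the same strand, and TBC1D5 shared 7.72% with SATB1, but OMA1 had a mean of 0.25 counts and SATB1 had 0. CTNNA3 shared 9.75% with LRRTM3 on the opposite strand, which had a mean of 6.75 counts. The strand setting of the counting was not given in the sources used here. CSTF2T, which lies inside the interval of PRKG1 on the opposite strand, had a mean of 1974.5 counts, above the 857 of PRKG1 itself. APAF1 overlaps 0.714% of ANKS1B on the opposite strand and had a mean of 4388 counts, against 445 for ANKS1B.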

How the data were processed

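TT-Seq counts from HCT116 KAP1_dTAG clone D5 were analyzed for 2 DMSO and 2 dTAG libraries, with counts per library of 93105627 to 102314741 on genes. The authors used Trim Galore 0.6.4 on the reads, aligned these to hg38 by STAR and counted them over entire protein-coding genes with featureCounts (Subread 1.6.3), and the deposited values are raw counts without normalization. All 4 columns of counts were used.

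A minimum of 50 counts in every library left 12612 genes, which were fitted together in R 4.3.3 with edgeR 4.0.16, using TMM factors, 1 term for dTAG against DMSO and the two-sided quasi-likelihood test with Benjamini-Hochberg adjustment over these genes, and an adjusted p under 0.05 made a call. Standard errors were taken from the log2 fold change and its F statistic (change over root F). Only rows of the genes of 1 Mb or longer and their comparisons are given. The tested ones are named with their log2 fold changes, except some that are not reported here, and values per library are given for called genes, those with the 4 smallest p-values, the highest level, the longest, the 2 shortest and the 2 tested genes just under 1 Mb; DAB1, ROBO2, FHIT, ZFHX3, SOX5 and GPC5 were added after their values were seen. The members and gene lists were chosen with earlier results of these data known. All fits except that with ERCC totals as library sizes were run on simulated counts. These counts held no trend on GC content or length between libraries, so the run does not show how the fits handle such trends. GC content came from hg38, introns from GENCODE 44, and spans and promoters from RefSeq (GRCh38.p14).

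Alternatives were DESeq2 1.42.0, upper-quartile factors, ERCC totals as library sizes, an ERCC factor as a covariate (1 factor from the 14 ERCC RNAs at the count minimum, after the RUVg method), a likelihood ratio test, other count minimums, a replicate block, removal of trends on length or GC by lowess (span 0.3), TMM factors from genes of 100 kb to 1 Mb, and leaving out each library. The authors spiked ERCC RNAs into the purified RNA, and the RUVSeq function they used is not given in the sources used here, so TMM was used. Samples are labeled as replicates, and p-values measure the spread between these samples. Depth per library limits counting error only.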

Additional observations from a re-analysis of the deposited data

How the results depend on the processing

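The 2 calls among the 28 genes were also made with upper-quartile factors, a count minimum of 10, no count minimum, removal of the length trend and the 21 genes without overlap, and DESeq2 and the likelihood ratio test added PTPRN2. These fits called between 6.05% and 12.6% of the genes they tested. Library sizes set to the ERCC totals gave 0 calls, with 1 gene higher and 0 lower at an unadjusted p under 0.05 in edgeR, and a median of 0.70, where the median of all tested genes was 0.63. That fit called 0 of the 12612 tested genes. The ERCC factor as a covariate gave 4 genes higher and 3 lower and a median of -0.061, with LRP1B turned to -0.25 and called, beside DLG2 and PARD3B. Of all tested genes, 10.5% were called with this covariate. After removal of the GC and length trends 4 genes were higher and 1 lower, where 18.1% of all tested genes were called. TMM factors from genes of 100 kb to 1 Mb gave 0 higher, with 2 higher and 1 lower at an unadjusted p under 0.05 in edgeR. With these factors 0.555% of all tested genes were called. Leaving out each library, where the lone sample of a group is assumed to vary like the other group, gave between 0 and 9 genes higher and a median between -0.0025 and 0.18. The cause of these changes was not tested. The median was below 0 also with upper-quartile factors (-0.0074), where that of all tested genes was -0.088. With the TMM factors from long genes it was -0.036, where that of all tested genes was -0.12. Signs changed in 12 of 28 genes with the ERCC factor and in 10 with ERCC totals.

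The labels number the replicates in both groups but do not say that a number marks a shared batch. Over all tested genes the deviations of same-numbered libraries from their group means correlated at -0.24, so that they did not deviate together. With the replicate block, 1 gene was called higher (NRG1), where 2.7% of all tested genes were called. With the numbers crossed, an alternative chosen after seeing the data, 6 genes were called higher and 0 lower, where 25.3% of all tested genes were called.

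With 2 libraries per group, standard errors of these genes were at least 0.083 on the log2 scale. The share of gene counts differed by 0.0146 percentage points between the groups, and by the same to 3 digits over tested genes only. The longest decile of length had a median of 0.082.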

Other observations

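Of the 4 X-linked genes of 1 Mb or longer, 3 passed the count minimum and none was called. IL1RAPL1, a synaptic adhesion gene, had 33833 and 26888 counts with DMSO and 31958 and 33289 with dTAG, and a log2 fold change of 0.17 (standard error 0.11). DMSO replicate 2 was its lowest library and the groups overlapped. IL1RAPL2 had a log2 fold change of 0.28 (standard error 0.29) at 59 to 74 counts, and ENSG00000250349 had 0.068 (standard error 0.12). DMD, the dystrophin gene and the longest of the 4 at 2241766 bp, had 32, 39, 42 and 40 counts and was not tested.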
